A study of Mus musculus with 178 samples.

Results

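The comparison described here was made in whole blood of nonresponding mice on Day 24, the last on-treatment bleed, between 15 mice with stable disease and 15 mice with progressing tumors. These 30 libraries are part of 178 bulk RNA-seq libraries taken from C57BL/6J mice, 6 to 8 weeks old in the study's methods, that carried 4MOSC1 tumors, a carcinogen-induced squamous cell carcinoma line grown in the tongue or buccal mucosa, and that were bled on Days 4, 9, 17 and 24. Every mouse of both groups received antiPD1, an antibody that blocks the PD-1 receptor of T cells. The labels call all 30 libraries NonResponder. The split into stable and progressing disease follows the library number, 164 to 178 for stable disease and 149 to 163 for progressing disease, and mouse 330 (library 163), which the study's source data list as stable on this day only, was kept with the progressing mice. The question was whether blood taken late in treatment carried a transcript difference between nonresponders whose tumors were held and nonresponders whose tumors grew. The model is 1 tumor line in 1 mouse strain. Each of these 30 Day 24 libraries came from a different mouse.

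Most RNA in whole mouse blood comes from reticulocytes, young red cells that still hold globin and heme synthesis transcripts, while platelets, neutrophils, monocytes and lymphocytes supply the rest. PD-1 blockade acts on T cells, and interferon released by activated lymphocytes raises interferon-stimulated genes in many blood cells. Myeloid cells such as neutrophils and monocytes often expand in tumor-bearing mice. In such bulk samples, fewer cells of a type and less RNA per cell cannot be told apart.

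The 30 libraries held between 45573324 and 67814533 counts, of which haemoglobin genes took 76.3% to 88.0%. Counts outside the haemoglobin genes numbered 10504030 in the median progressing mouse and 10319874 in the median stable mouse. One library stood apart. In library 166, from a mouse with stable disease, 12605 genes were detected, against 16077 to 17915 in the other 29 libraries, and the 20 most abundant genes other than haemoglobin took 55.5% of the remaining counts, against 21.0% to 35.5%. Red cell transcripts led this library. Alas2, the heme synthesis enzyme of red cells, took 15.8% of its non-haemoglobin counts, against 5.07% to 8.69% elsewhere. Its TMM factor, the scaling that edgeR applies to a library, was 0.085, against 0.69 to 1.67 in the others, so that each of its counts was scaled up far more than a count of any other library. It also had the fewest counts outside the haemoglobin genes, 5952979. Group results were therefore computed with and without this library, and single genes are given without it unless stated, and levels are read counts scaled by library size (CPM) after TMM scaling over the 30 libraries.

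Without library 166 the remaining library measures overlapped between the groups. The haemoglobin share was 81.8% ± 2.77 (SD, n = 14) in stable disease and 80.8% ± 2.42 (SD, n = 15) in progressing disease, a difference of 1.03 percentage points (two-sided permutation test with 100000 resamples, p = 0.290). With library 166 the difference was 1.45 points (permutation p = 0.164). Genes detected differed by 152 in the mean, fewer in stable disease (permutation p = 0.399), and by 435 with library 166 (permutation p = 0.201). The transcripts of Ddx3y, Eif2s3y, Kdm5d and Uty, genes of the Y chromosome, had 0 counts in each of the 30 libraries, and Xist, made from an inactive X chromosome, was counted in each, although the study describes mice of both sexes.

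**Figure D1:**
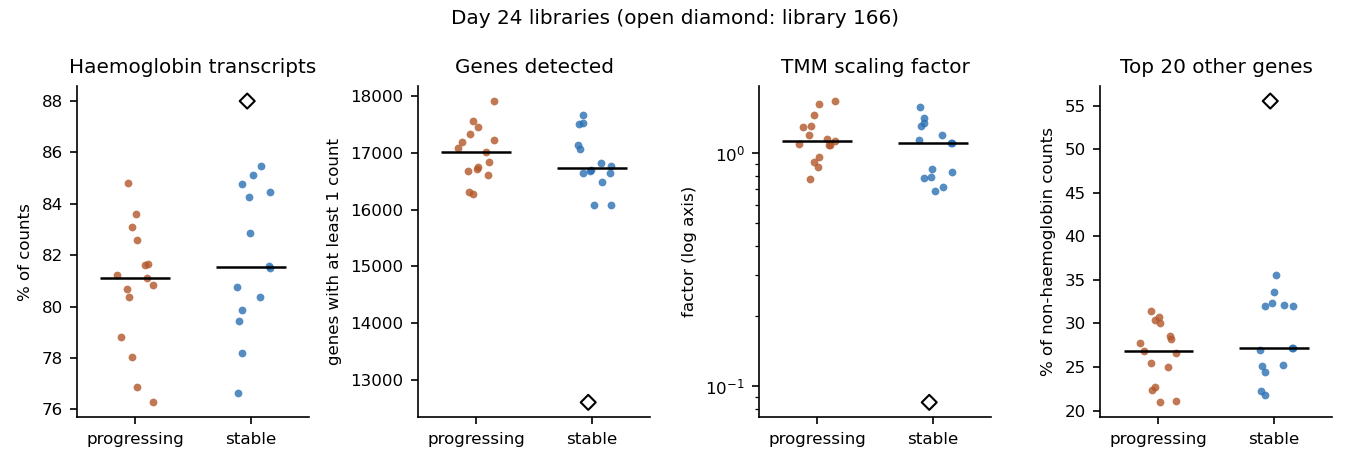
Library measures on Day 24 for the progressing and the stable mice, with 1 point per mouse: haemoglobin share (% of counts), genes detected (number), TMM factor (log axis) and the share of the 20 most abundant other genes (% of non-haemoglobin counts). Bars are medians without library 166, the open diamond, which lies outside the range of the other 29 mice in every panel.

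No gene passed the test. With all 30 libraries, 0 of 12169 genes (0%) had an adjusted p of at most 0.05 in edgeR's quasi-likelihood test (smallest adjusted p 0.427), and 829 genes had an unadjusted p below 0.05, which is 6.81% of those tested. Without library 166 the same test called 0 of 12233 genes (smallest adjusted p 0.645), and 547 genes, or 4.47%, had an unadjusted p below 0.05. DESeq2 called 0 genes with 536 at an unadjusted p below 0.05, and limma with sample quality weights called 0 with 665. Without library 166 DESeq2 called 0 with 525 at an unadjusted p below 0.05 and a smallest adjusted p of 0.056, and limma called 0 with 652.

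The width of the intervals shows how closely single differences were measured, not what the adjusted test could have called. Without library 166, the 95% interval of the log2 fold change was wholly inside a 1.5-fold difference for 11482 of 12233 genes (93.9%), and inside 2-fold for 99.0%. The median half-width of these intervals was 0.14 on the log2 scale. With library 166 in the fit the half-width was 0.16 and the share inside 1.5-fold was 86.1%. For most measured genes the data therefore placed any difference between stable and progressing mice below 1.5-fold. Only 31 genes had an estimate of 1.5-fold or more without library 166, of which 28 had a mean level below 1 CPM.

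One library decided which genes appeared far apart. With all 30 libraries 501 genes were at least 1.5-fold higher and 4 at least 1.5-fold lower in stable disease. Without library 166 these numbers were 26 and 5. Atf5, a stress-response transcription factor (chr7:44812256-44816658, GRCm38), had the steepest estimate, a log2 fold change of 4.26 ± 0.99 (SE). Its level was 1.42 to 4.61 CPM in the progressing mice with a median of 2.27, and 1.77 to 3.99 CPM with a median of 2.68 in 14 stable mice. In library 166 it was 772 CPM. The 2 groups overlapped fully apart from that library, and without it the log2 fold change of Atf5 was -0.04 ± 0.14 (SE; 95% interval -0.33 to 0.26). Gng5, a G protein subunit, followed the same course, with a log2 fold change of 2.80 with library 166 and 0.13 without it.

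**Figure D2:**
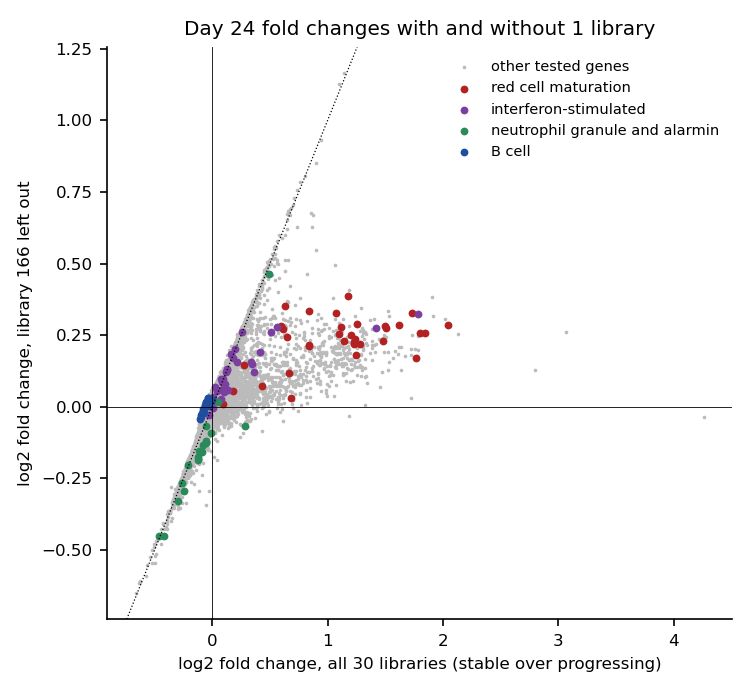
Log2 fold change (stable over progressing) of every gene tested in both fits, with all 30 libraries on the horizontal axis and without library 166 on the vertical axis. Colors mark 4 gene lists and the dotted line marks equal values. Red cell genes reach a log2 fold change of 2.05 with the library and at most 0.39 without it, while B cell genes stay near 0 on both axes.

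The genes with the smallest p-values are given as values, since none passed. Trf, which encodes the iron carrier transferrin (chr9:103204001-103230444, GRCm38), had the smallest p without library 166. Its level was 2.82 to 5.56 CPM in progressing mice with a median of 3.39, and 2.14 to 3.68 CPM in 14 stable mice with a median of 2.66. Library 166 had 6.14 CPM. The stable mice thus lay toward the lower end, but the ranges overlapped. The log2 fold change of Trf was -0.45 ± 0.10 (SE; 95% interval -0.65 to -0.25; unadjusted p = 5.3e-05, edgeR adjusted p = 0.645) without library 166 and -0.42 ± 0.11 (SE; edgeR adjusted p = 0.427) with it. Tedc2, a component of a centriole tubulin complex, had a log2 fold change of -0.44 without library 166 and a median of 0.496 CPM in stable against 0.643 CPM in progressing mice. Prrg1, a membrane protein with a vitamin K-dependent domain, had a log2 fold change of 0.53 at medians of 0.341 and 0.242 CPM in stable and progressing mice. Kcnq1ot1, an imprinted noncoding RNA, had a log2 fold change of 0.50 at medians of 1.68 and 1.10 CPM.

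The other genes at the low end of p differed less. Among them Wdr20 (log2 fold change 0.14), Med22, a Mediator subunit (-0.16), Sorcs2, a sorting receptor (-0.29), Pfkl, the liver type phosphofructokinase (-0.11), and Mical1, an actin-oxidizing enzyme (-0.09), kept nearly the same estimate with and without library 166. The estimates for Cmas (2.02 with all libraries, 0.31 without library 166), Ghitm (2.13 and 0.25), Wipi1 (1.91 and 0.32) and Mthfd2 (1.90 and 0.38) did not. Of the 12 smallest p-values for higher genes with all 30 libraries, only Prrg1 and Wdr20 had a log2 fold change that moved by less than 0.1 when this library was left out.

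Red cell genes had 12 members at an unadjusted p below 0.05 without library 166. The red cell maturation list holds heme synthesis, membrane skeleton and red cell transcription factor genes. None of its 36 tested members was called. The 12 members (33.3%) all had higher values in stable disease, where 2.49% of all tested genes did so. All 36 estimates were positive and their median log2 fold change was 0.25, against 0.00 over all genes tested. With library 166 the median was 1.14 and 24 of 35 members had an unadjusted p below 0.05, against 5.04% of all genes in that direction and 1.78% in the other. With library 166 kept, DESeq2 gave a median of 0.25 with 12 of 35, against 2.71% of all genes. Limma with sample quality weights gave a median of 0.27 with 5 of 35, against 2.43%. Without it DESeq2 gave 0.24 with 12 of 36, against 2.49%, and limma gave 0.22 with 7 of 36, against 2.65%. The estimates of these 2 tools thus changed little with library 166. Members of this list vary together across mice, so their number is not a number of independent observations.

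The level of the list in each mouse shows how far the groups overlapped. Its summed level ran from 12632 to 29536 CPM in progressing mice with a median of 20072, and from 14874 to 34867 CPM in 14 stable mice with a median of 20937. Library 166 had 417165 CPM. Apart from that library, both groups covered nearly the same range. Alas2 had 7209 to 16653 CPM in progressing mice (median 11073) and 7644 to 18821 CPM in 14 stable mice (median 11694). The log2 fold change of Alas2 was 0.18 ± 0.15 (SE; 95% interval -0.12 to 0.48) without library 166 and 1.25 with it.

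Membrane genes of the red cell followed. Slc4a1, the band 3 anion exchanger (chr11:102348824-102366203, GRCm38), had 129 to 358 CPM in progressing mice (median 257) and 193 to 385 CPM in 14 stable mice (median 293). For Slc4a1 the log2 fold change was 0.28 ± 0.13 (SE; 95% interval 0.02 to 0.55) without library 166 and 1.62 with it. Rhag, the Rh-associated glycoprotein, had 0.39 (0.07 to 0.71) and Tfrc, the transferrin receptor, had 0.21 (0.03 to 0.39). Bpgm, which makes 2,3-bisphosphoglycerate, had 0.22 (-0.08 to 0.52). None of these genes passed the adjusted test. Rhag and Tfrc were chosen after their values were seen.

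The unadjusted count of red cell genes depended on the setting. Counting mouse 330 as stable, again without library 166, left 3 of 36 members at an unadjusted p below 0.05 (2.13% of all genes in that direction) with a median of 0.21. With the haemoglobin share as a covariate it was 6 of 36 (3.14% of all genes) with a median of 0.13, and with the ear tag series as a covariate it was 13 of 36 (2.60% of all genes) with a median of 0.25. With library 166 kept, the haemoglobin covariate left 0 of 35 (1.54% of all genes) with a median of 0.33. On log2(TPM + 1) it was 4 of 35 with a median of 0.06, and on log2(TPM + 0.1) 1 of 35 with a median of 0.10. On these 2 scales only 0.088% and 0.062% of all genes were higher, and the medians of all genes were -0.11 and -0.29. The 7 tested haemoglobin genes had a median log2 fold change of 0.18 without library 166 and of 0.96 with it. At an unadjusted p below 0.05 there were 0 of 7 and 2 of 7, against 2.49% and 5.04% of all genes. The haemoglobin share moved in the same direction as the red cell list. Both are held by reticulocytes, so the covariate fit cannot separate the share from the list, and the part of the share in these values was not tested.

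No difference in platelet genes was detected. All 19 platelet genes had positive estimates, with a median log2 fold change of 0.10 without library 166 and 0 of 19 at an unadjusted p below 0.05. With that library the median was 0.37 and 1 of 19 had an unadjusted p below 0.05. Pf4, platelet factor 4, had 20.2 to 59.1 CPM in progressing mice (median 36.5), 26.7 to 65.8 CPM in 14 stable mice (median 41.8) and 171 CPM in library 166. For Pf4 the log2 fold change was 0.05 (95% interval -0.25 to 0.35). Ppbp, another platelet chemokine, had 0.15 (-0.19 to 0.50) and Itga2b, the platelet integrin alpha chain, had 0.06 (-0.26 to 0.38). The median of the summed platelet level was 672 CPM in 14 stable mice and 610 CPM in progressing mice, among which it reached 974 CPM.

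Interferon-stimulated genes gave small positive estimates in the count fits, and negative ones on the TPM scale. None of 32 was called, and 30 of 32 had positive estimates without library 166, with a median log2 fold change of 0.11. Irf7, a transcription factor of the interferon response, Ifit1, Oasl1 and Eif2ak2, antiviral effectors, made up the 4 members (12.5%) with an unadjusted p below 0.05, against 2.49% of all genes in that direction. With library 166 there were 8 such members, against 5.04% of all genes, and the median was 0.12. Without it, 2 of 32 were left with mouse 330 counted as stable (median 0.07), 2 of 32 with the haemoglobin share as a covariate (median 0.10) and 5 of 32 with the ear tag series as a covariate (median 0.12). Of all genes, 2.13%, 3.14% and 2.60% were higher in these 3 settings. Among the 11 stable and 12 progressing mice with 3-digit ear tags, which leave out library 166, there were 15 of 32 (median 0.17), against 2.56% of all genes. Among the 4 stable and 3 progressing mice with 4-digit tags, library 166 included, there were 0 of 32 (median 0.0005), against 0.393%. Limma with sample quality weights gave 2 of 32 with library 166 and 2 of 32 without it (median 0.12 in both), against 2.43% and 2.65%. By limma on log2(TPM + 1) the list median was -0.07 and on log2(TPM + 0.1) it was -0.16, with 0 of 31 higher at an unadjusted p below 0.05, where the medians of all genes were -0.11 and -0.29. Isg15, a ubiquitin-like interferon product (chr4:156199424-156200818, GRCm38), had 27.0 to 87.1 CPM in progressing mice (median 55.3) and 33.8 to 116 CPM in 14 stable mice (median 67.1). Its log2 fold change was 0.33 ± 0.16 (SE; edgeR adjusted p = 0.945). With library 166, whose level was 2012 CPM, it was 1.79.

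Rsad2, which encodes viperin, showed the same dependence, with a log2 fold change of 0.28 (95% interval -0.02 to 0.57) without library 166 and 1.42 with it. Irf7 had 0.28 (0.02 to 0.54) and Ifit1 had 0.26 (0.00 to 0.52). Most members had intervals that included 0.

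Neutrophil genes gave estimates on the other side. Of 18 tested genes of neutrophil granules and alarmins, 0 were called, 16 had negative estimates without library 166, and the median log2 fold change was -0.16. With library 166 it was -0.10 and 2 of 18 were lower at an unadjusted p below 0.05, against 1.78% of all genes. Limma with sample quality weights gave -0.23 with 4 of 18 lower without that library. Of all 12233 genes in that limma fit, 652 had an unadjusted p below 0.05 in either direction. With all libraries the list median was -0.31 with 8 of 18 lower on log2(TPM + 1) and -0.45 with 7 of 18 on log2(TPM + 0.1). On these 2 scales the medians of all genes were -0.11 and -0.29. Of 11314 genes tested there, 501 and 478 were lower at an unadjusted p below 0.05. Padi4, which citrullinates histones in neutrophils, Mmp9, gelatinase B, and Retnlg, all named after their values were seen, had an unadjusted p below 0.05, 3 of 18 (16.7%) where 1.99% of all genes did so in that direction. Retnlg, a resistin-like neutrophil product, had 13.7 to 37.2 CPM in progressing mice (median 20.0) and 6.86 to 34.5 CPM in 14 stable mice (median 16.7). For Retnlg the log2 fold change was -0.45 (95% interval -0.80 to -0.10). Padi4 had -0.33 (-0.55 to -0.10) and Mmp9 had -0.29 (-0.58 to -0.01).

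The most abundant neutrophil genes were less clear. S100a8, an alarmin, had 22.7 to 67.9 CPM in progressing mice (median 32.3) and 13.9 to 69.5 CPM in 14 stable mice (median 25.7), so the groups overlapped over nearly their whole range. For S100a8 the log2 fold change was -0.19 ± 0.20 (SE; 95% interval -0.60 to 0.22). S100a9, its partner, had -0.16 (-0.55 to 0.24) and Csf3r, the granulocyte colony-stimulating factor receptor, had -0.09 (-0.37 to 0.18). Only 11 of the 18 intervals lay inside 1.5-fold, so this list was measured less sharply than the lymphocyte lists. The 7 tested basophil and eosinophil genes had a median of -0.19 with 0 at an unadjusted p below 0.05, and Ccr3, an eosinophil chemokine receptor, had -0.39 (-0.96 to 0.18).

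No difference in monocyte genes was detected. The median log2 fold change of 12 classical monocyte genes was 0.06 and that of 11 non-classical monocyte genes was 0.00 without library 166, with 0 of 23 at an unadjusted p below 0.05. With that library the medians were 0.12 and 0.00, again with 0 of 23. Lyz2, the myeloid lysozyme, had 149 to 297 CPM in progressing mice (median 201) and a median of 210 CPM in 14 stable mice, and its log2 fold change was 0.01 (95% interval -0.20 to 0.22). Ly6c2, a surface marker of inflammatory monocytes, had 0.11 (-0.05 to 0.27), and Cx3cr1, a receptor of patrolling monocytes and effector lymphocytes, had 0.01 (-0.24 to 0.26). Of 15 genes of myeloid activation and suppression, 0 had an unadjusted p below 0.05.

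**Figure D3:**
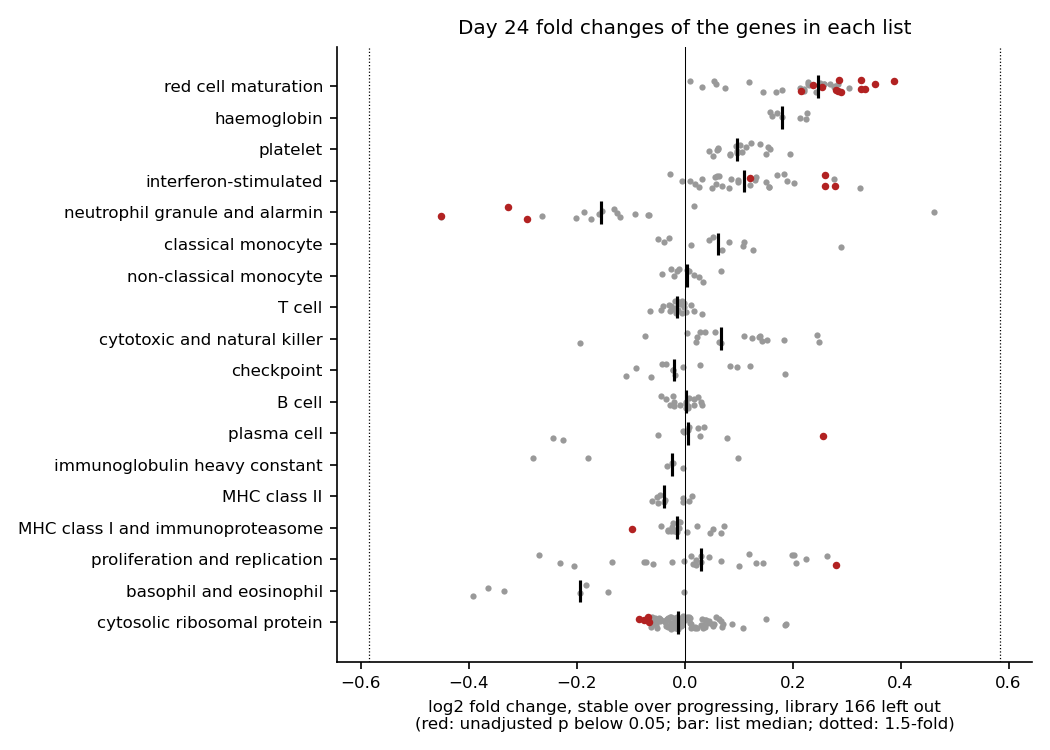
Log2 fold change (stable over progressing, without library 166) of each tested gene in 18 of the 36 gene lists, with 1 point per gene, red where the unadjusted p was below 0.05. Bars are list medians, from -0.19 (basophil and eosinophil) to 0.25 (red cell maturation), and the points of these lists lie inside the dotted lines at 1.5-fold; the dendritic cell and mucosal epithelial lists, which reach -0.62 and 1.16, are not drawn.

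T cell genes were tightly measured, and no difference was detected. All 22 T cell genes had a 95% interval inside 1.5-fold, with a median log2 fold change of -0.01 and 0 of 22 at an unadjusted p below 0.05 without library 166, and a median of -0.04 and 0 of 22 with it. Cd3e, a chain of the T cell receptor complex, had 8.44 to 10.9 CPM in progressing mice (median 9.68) and 8.10 to 11.9 CPM in 14 stable mice (median 9.93). Its log2 fold change was 0.01 (95% interval -0.08 to 0.10). Cd8a had 0.02 (-0.09 to 0.13) and Cd4 had -0.04 (-0.13 to 0.04). Foxp3, which defines regulatory T cells, had 0.01 (-0.16 to 0.18), with 1.80 CPM as the median of both groups.

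Cytotoxic and natural killer genes had estimates slightly above 0. Of 19 such genes 17 had positive estimates without library 166, the median was 0.07, and 0 had an unadjusted p below 0.05. With it the median was 0.04 and the count again 0. Gzmb, the cytotoxic protease granzyme B, had 1.08 to 3.48 CPM in progressing mice (median 2.20) and 1.81 to 3.36 CPM in 14 stable mice (median 2.58). Its log2 fold change was 0.25 ± 0.12 (SE; 95% interval -0.00 to 0.49). Nkg7, a granule protein of killer cells, had 0.02 (-0.13 to 0.17), Prf1, perforin, had 0.07 (-0.13 to 0.26), and Gzma had 0.11 (-0.12 to 0.34). Each of these intervals included 0.

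The checkpoint pathway that the treatment targets gave estimates near 0. The 14 tested checkpoint genes had a median log2 fold change of -0.02 without library 166 and -0.03 with it, and 0 at an unadjusted p below 0.05 in both fits. Pdcd1, which encodes PD-1 itself, was near the limit of measurement, at a median of 0.188 CPM in 14 stable and 0.170 CPM in progressing mice, and its log2 fold change was 0.10 (95% interval -0.33 to 0.52). Cd274, the ligand PD-L1, had -0.04 (-0.19 to 0.12). Ctla4 had -0.11 (-0.29 to 0.08) and Lag3 had 0.12 (-0.29 to 0.53). The intervals for Pdcd1 and Lag3, both with medians below 1 CPM, were the widest of these.

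The genes that the study names for effector memory T cells (T_em) and B cells did not separate the groups. Cxcr3, a chemokine receptor of effector T cells, had a log2 fold change of -0.00 (95% interval -0.17 to 0.16), Cxcr6 had 0.12 (-0.07 to 0.31), and Tbx21, the transcription factor T-bet, had 0.06 (-0.16 to 0.29). Among the 152 tested genes of the study's T_em signature, 4 had a higher and 3 a lower value in stable disease at an unadjusted p below 0.05 (2.63% and 1.97%), with a median log2 fold change of -0.01. For 120 tested genes of its B cell signature the numbers were 3 and 0, with a median of 0.00. Over all genes tested the shares were 2.49% higher and 1.99% lower, close to those of the T_em signature. The study built these signatures itself, so they are no independent lists.

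B cell genes were as tightly measured as T cell genes. All 18 had intervals inside 1.5-fold, with a median log2 fold change of 0.00 and 0 at an unadjusted p below 0.05 without library 166. Cd79a, a signaling chain of the B cell receptor, had 79.9 to 104 CPM in progressing mice (median 97.9), 80.5 to 109 CPM in 14 stable mice (median 96.9) and 30.2 CPM in library 166. Its log2 fold change was -0.02 (95% interval -0.11 to 0.07) without and -0.09 with that library. Cd22 had 0.02 (-0.08 to 0.11) and Ms4a1, which encodes CD20, had 0.03 (-0.08 to 0.15).

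None of the 7 tested immunoglobulin heavy constant genes had an unadjusted p below 0.05. Ighm, the IgM heavy chain, had 205 to 296 CPM in progressing mice and 212 to 285 CPM in 14 stable mice, with a median of 259 CPM in each, and its log2 fold change was -0.03 (95% interval -0.14 to 0.07). Igha, the IgA heavy chain, had -0.28 (-0.64 to 0.08), Ighg1 had -0.18 (-0.49 to 0.13) and Jchain, which links IgA and IgM units, had -0.23 (-0.56 to 0.11). Their intervals include 0 and were wider than for Ighm. Of 12 plasma cell genes only Ell2, a transcription elongation factor, had an unadjusted p below 0.05, with a log2 fold change of 0.26 (0.03 to 0.48). The 10 tested MHC class II genes had a median of -0.04 with 0 at an unadjusted p below 0.05, and Cd74, their invariant chain, had -0.05 (-0.14 to 0.04).

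**Figure D4:**
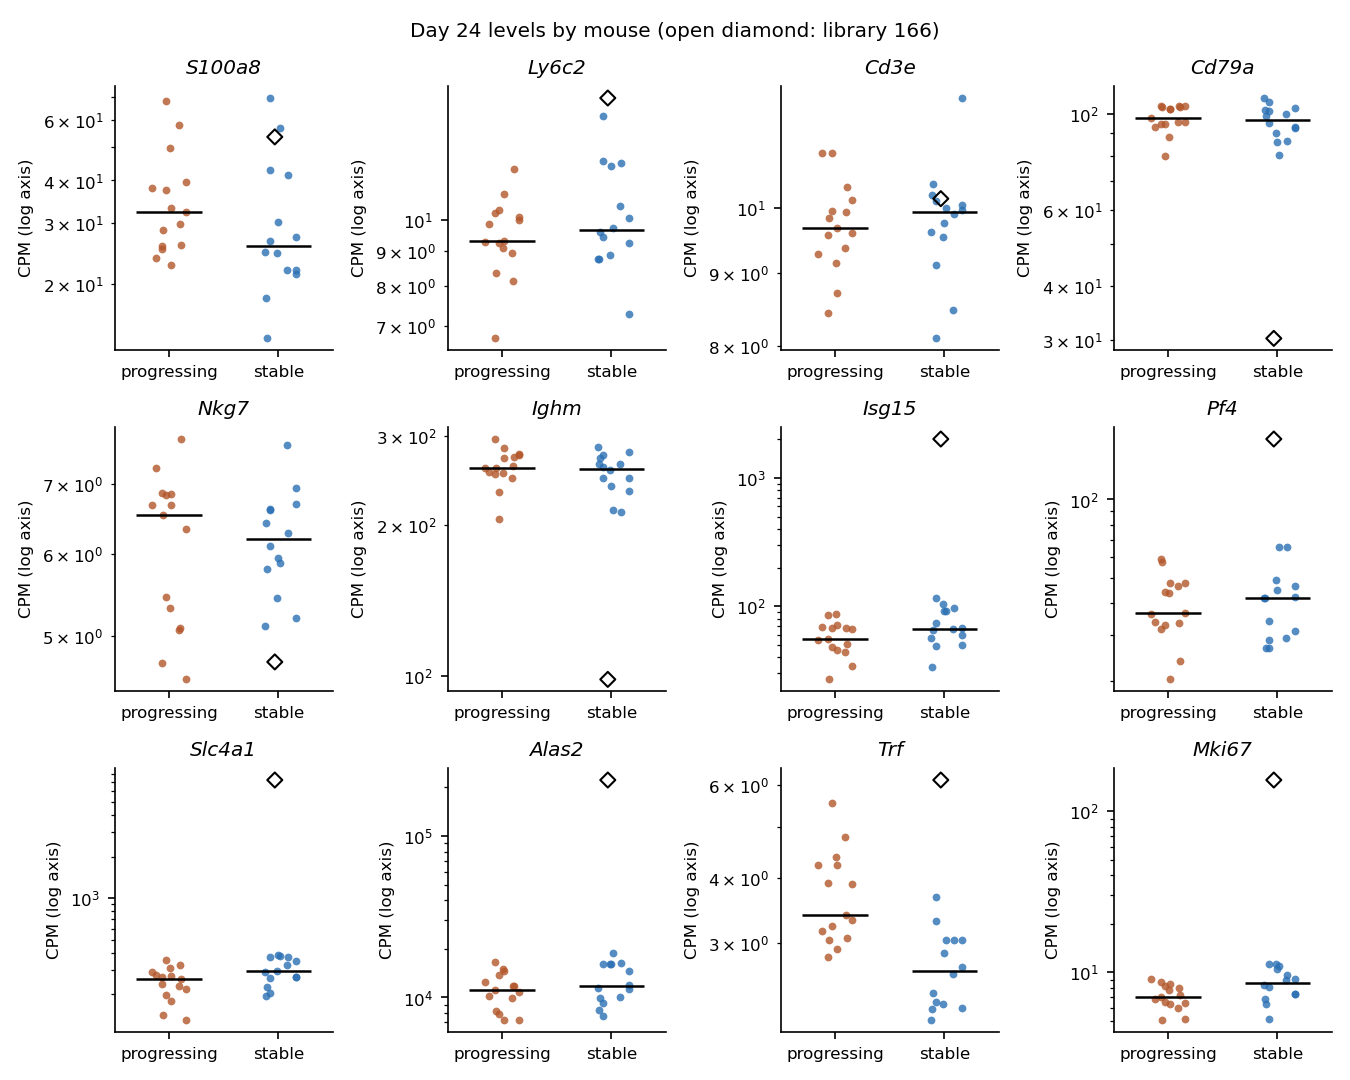
Levels of 12 genes in each Day 24 library, in CPM on a log axis, for progressing and stable mice, with medians without library 166 as bars and library 166 as the open diamond. The groups overlap in every panel, and library 166 lies above all other mice for Slc4a1 (7187 CPM), Alas2, Isg15, Pf4, Mki67, Trf and Ly6c2 and below them for Cd79a (30.2 CPM) and Ighm.

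Mki67, a proliferation marker, had 5.02 to 9.08 CPM in progressing mice (median 7.02) and 5.10 to 11.3 CPM in 14 stable mice (median 8.62), with a log2 fold change of 0.28 (95% interval 0.07 to 0.49) without and 1.19 with library 166. It was the only one of 27 proliferation genes with an unadjusted p below 0.05 without that library, and Top2a, which acts in the same phase of the cell cycle, had 0.05 (-0.16 to 0.25). The 81 cytosolic ribosomal protein genes had a median log2 fold change of 0.29 with library 166 and -0.01 without it. The 77 respiratory chain genes had medians of 0.11 and 0.02. Mitochondrial ribosomal protein genes had -0.03 and -0.02. Slc7a5, an amino acid transporter, had 0.33 (0.08 to 0.59) in a list of 19 amino acid stress genes whose median was 0.01.

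The other lists held 0 called genes. The medians without library 166 were 0.01 for heat shock chaperones, -0.02 for immediate early genes, 0.00 for chemokine ligands and receptors, -0.02 for Toll-like receptors, -0.03 for Fc receptors and complement, -0.01 for MHC class I and the immunoproteasome, -0.09 for regulatory T cells and -0.03 for dendritic cells. Among 20 genes of mucosal epithelium and tumor, 6 were abundant enough to test. Krt6a, a keratin of squamous epithelium named after its value was seen, had a log2 fold change of 1.16 (95% interval 0.21 to 2.12) at medians of 0.421 CPM in 14 stable and 0.276 CPM in progressing mice. Its level ran up to 2.38 CPM in stable and 1.65 CPM in progressing mice, so the groups overlapped. Without the stable mouse with the highest epithelial sum as well, the log2 fold change of Krt6a was 0.92 (unadjusted p = 0.0576, edgeR).

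The same groups of mice were compared on the earlier days, with other libraries of the same animals. On Day 4, before treatment, edgeR called 0 of 12501 genes, and 3105 (24.8%) had an unadjusted p below 0.05. On Day 9 it called 0 of 12425 with 880 (7.08%) at an unadjusted p below 0.05. On Day 17 it called 1 of 12228 (0.00818%), with 1425 (11.7%) at an unadjusted p below 0.05. The called gene was Scand1, a SCAN domain gene, with a log2 fold change of -2.72 on Day 17 (edgeR adjusted p = 0.0054). Its level on that day was 0.082 to 0.542 CPM in 15 stable mice (median 0.300) and 0.285 to 5.41 CPM in 14 progressing mice (median 1.43), so the groups overlapped. On Day 24 Scand1 had a log2 fold change of 1.13 (95% interval 0.25 to 2.01) without library 166, the opposite sign, and was not called.

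The list values on Day 4 and Day 24 stood side by side as follows. On Day 4 the red cell list had a median log2 fold change of -0.50 with 19 of 36 genes lower in stable disease at an unadjusted p below 0.05 (52.8%, against 15.8% of all genes in that direction), and on Day 24 without library 166 the median was 0.25. Platelet genes had -0.59 on Day 4 with 17 of 19 lower at an unadjusted p below 0.05, and 0.10 on Day 24. The median summed platelet level on Day 4 was 877 CPM in stable and 885 CPM in progressing mice, with highest values of 1699 and 3775 CPM. For MHC class II the values were -0.25 with 7 of 10, and -0.04. For interferon-stimulated genes they were -0.13 with 14 of 32, and 0.11. The Day 4 values were not particular to these lists. Cytosolic ribosomal protein genes had -0.49 with 79 of 81 lower, and -0.01 on Day 24. Mitochondrially encoded genes had -0.68 with 13 of 13 lower, and 0.07, and respiratory chain genes -0.28 with 60 of 77 lower, and 0.02. Immediate early genes had 0.09 on Day 4, with 5 of 24 higher, against 9.09% of all genes in that direction. None of these genes was called on either day. Summed red cell levels had medians of 11562 CPM in stable and 18786 CPM in progressing mice on Day 4, scaled over all days, and 22165 and 21192 CPM on Day 24.

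**Figure D5:**
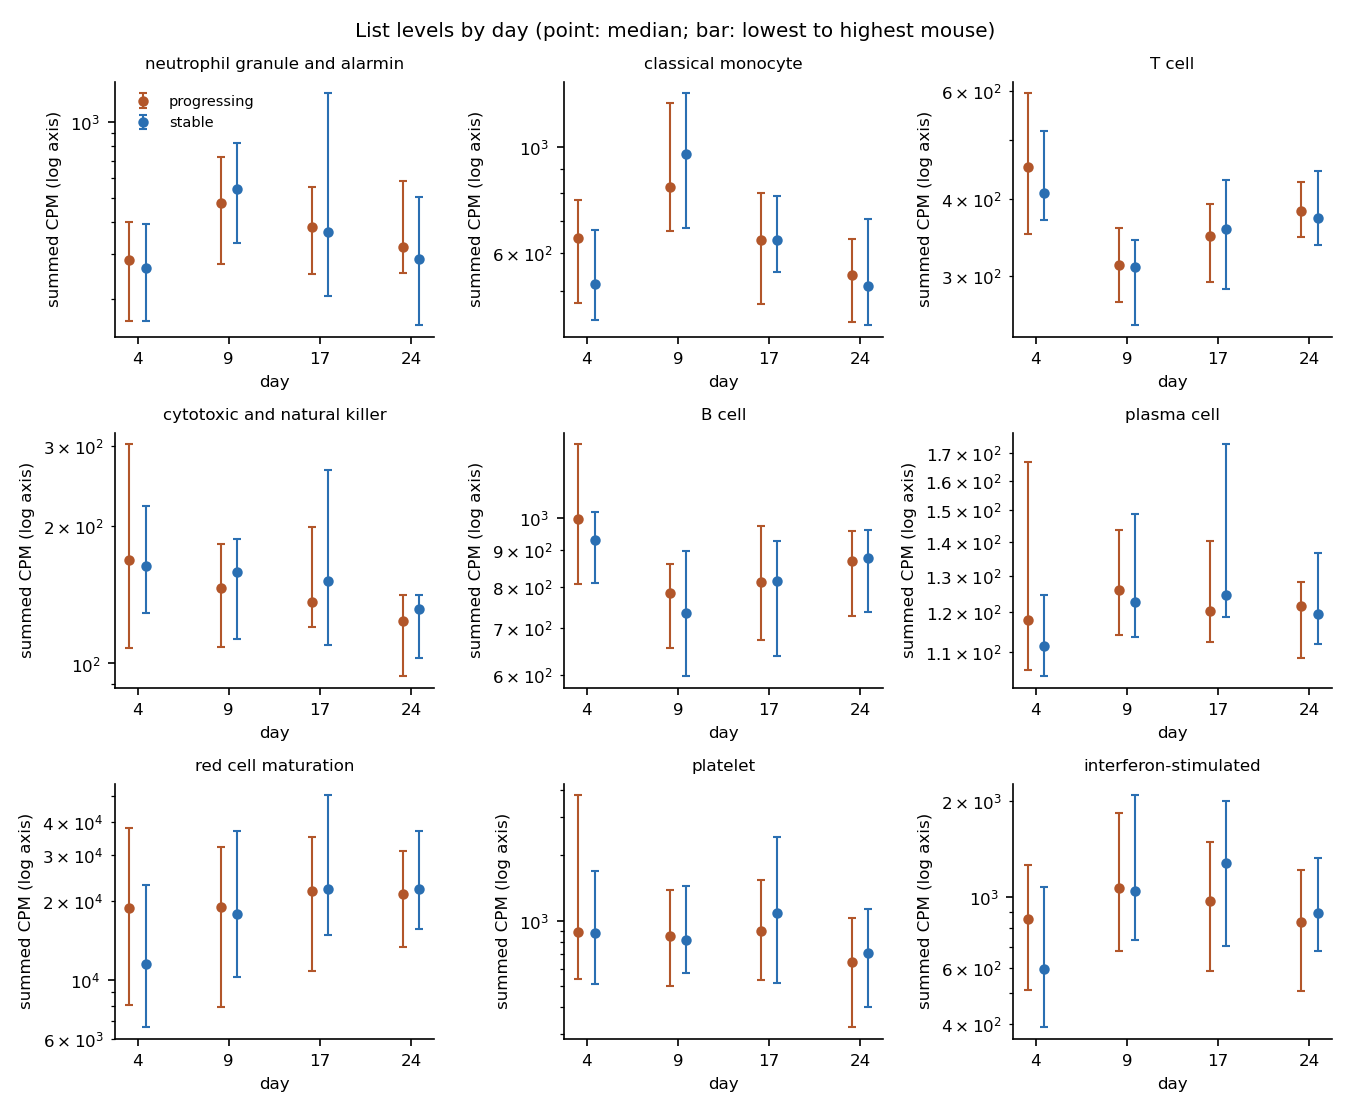
Summed level of 9 gene lists (CPM, log axis) on Days 4, 9, 17 and 24 in progressing and stable mice, with the median as a point and the lowest and highest mouse as a bar, without library 166 on Day 24. The bars of the 2 groups overlap in every panel on every day, and the red cell medians are 11562 and 18786 CPM on Day 4 and 22165 and 21192 CPM on Day 24 for stable and progressing mice.

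The difference between groups in the change from Day 4 to Day 24 was tested as an interaction over 59 libraries. With library 166, edgeR called 402 of 12933 genes (3.11%), 373 (2.88%) with a more positive and 29 (0.224%) with a more negative change in stable disease. With the mouse as a block, which uses that each animal was bled on both days, it called 0 of 12909, with 2339 (18.1%) at an unadjusted p below 0.05. Without library 166 it called 0 of 12940, with 2497 (19.3%) at an unadjusted p below 0.05, and 0 of 12904 with the block as well, with 2269 (17.6%). DESeq2 called 916 genes (7.08%) with library 166 kept and no block. Its estimates lay near those of edgeR without that library, 0.54 against 0.53 for Gng5 and 0.97 against 0.97 for Isg15. The edgeR count was thus above 0 only with library 166 and without the block.

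The positive estimates were smaller without that library. Gng5 had a log2 difference of changes of 3.16 ± 0.71 (SE; edgeR adjusted p = 0.034) with library 166 and 0.53 ± 0.19 (adjusted p = 0.117) without it. Isg15 had 2.41 (adjusted p = 0.034) and 0.97 (adjusted p = 0.090). Negative estimates moved little. Klhl9, a ubiquitin ligase adaptor, had -0.48 with library 166 and -0.47 without it (adjusted p = 0.090), and Elavl1, an RNA-binding protein, had -0.35 and -0.34. Red cell genes had a median of 0.78 without library 166 with 30 of 37 at an unadjusted p below 0.05, against 12.7% of all genes in that direction, and 0 called.

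Responders of the same study, 15 mice on Day 24, were placed beside the 2 groups in 1 fit. Without library 166 edgeR called 1773 of 12520 genes (14.2%) between responders and progressing mice and 1299 (10.4%) between stable disease and responders. With all libraries these numbers were 390 (3.13%) and 415 (3.33%) of 12469. Ear tags of 4 digits were carried by 11 responders, 4 stable and 3 progressing mice, and the labels do not say what the tag series means. With the tag series as a covariate and without library 166, the numbers were 130 (1.04%) and 365 (2.92%). The comparisons share libraries and are therefore given side by side.

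Platelet genes were higher in responders without library 166, and most calls, but not the size of the difference, were lost with the tag series as a covariate. Of 19 platelet genes, 18 were called higher in responders than in progressing mice, against 8.79% of all genes, with a median log2 fold change of 0.58, and 8 were called lower in stable disease than in responders, against 5.41% of all genes, with a median of -0.49, without library 166. With the tag series as a covariate these counts were 1 and 0, against 0.415% and 1.52% of all genes, with medians of 0.54 and -0.45, and 19 of 19 and 15 of 19 had an unadjusted p below 0.05 in the same directions, against 14% and 12.5% of all genes. On a scaling over the libraries of all days, the summed platelet level had a median of 1123 CPM in responders, 709 CPM in 14 stable mice and 648 CPM in progressing mice on Day 24. Red cell genes had 23 of 36 called higher in responders than in progressing mice, against 8.79% of all genes, with a median of 0.54. With the covariate 0 were called, against 0.415%, and the median was 0.57. There 30 of 36 were higher at an unadjusted p below 0.05, against 14% of all genes. In stable disease 3 of 36 were called lower than in responders, against 5.41% of all genes, with a median of -0.31. With the covariate 0 were called lower, with a median of -0.35. The median summed red cell level on Day 24 was 22237 CPM in responders, 22165 CPM in 14 stable mice and 21192 CPM in progressing mice, and the highest was 67246 CPM, in a responder. B cell genes had medians of 0.08 for responders over progressing mice and -0.08 for stable disease over responders, and of 0.03 and -0.02 with the covariate. Trf, the gene with the smallest p between the nonresponder groups, had -0.01 for responders over progressing mice and -0.45 for stable disease over responders (edgeR adjusted p = 0.020). These values of Trf are without library 166 and without the tag series as a covariate, and its value with the covariate is not reported here.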

How the data were processed

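The labels name polyA RNA of whole blood, drawn by retro-orbital puncture into TRIzol and prepared with the SMARTer mRNA-Seq kit. The authors aligned reads to mm10 (STAR in the submitters' processing notes, version not given) and deposited a table of expected counts for 55450 genes and 178 libraries, of which 3.14% of values were not whole and were rounded here, and a table of TPM values that the authors computed from the counts. The counting tool and annotation are not given in the sources used here. All 55450 identifiers matched GENCODE release M21 (GRCm38), the source of coordinates.

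Each mouse gave at most 1 library a day, with none on Day 4 for progressing mouse 330 and none on Day 17 for responder 7206. The labels do not separate stable from progressing disease, and that split rests on library numbers and the study's source data. The Day 17 library of mouse 7203 is labelled Responder against its other days and was not used. Members and gene lists were chosen with earlier results of these data known. Genes were filtered with filterByExpr, scaled with TMM and tested with edgeR 4.0.16 (quasi-likelihood, Benjamini-Hochberg adjusted p of at most 0.05), after a check on simulated data; limma 3.58.1 and DESeq2 1.42.0 ran under R 4.3.3 as alternatives. Fold changes of uncalled genes are given as estimates with 95% intervals. Named genes were the 12 with the smallest p in each direction (6 for the change from Day 4), the T_em and B cell genes the study names, and the 3 most abundant genes of each list; others were named after their values were seen. TPM values were tested on log2(TPM + 1) and log2(TPM + 0.1). For the change from Day 4, 29 mice had libraries on both days, so the pairing comes from the animals; the correlation of a mouse's deviations on both days ran from -0.21 to 0.37. Some list genes are not reported here by name.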

Additional observations from a re-analysis of the deposited data

Results flagged for a closer look

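The count of genes whose change from Day 4 to Day 24 differed between stable disease and progressing mice, 402 genes by edgeR's interaction test, was selected because the difference between the groups was tested directly and passed, while neither day alone had a called gene. The 6 genes with more positive changes in stable disease had log2 differences of 3.16 (Gng5), 4.33 (Atf5), 2.41 (Isg15), 2.28 (Gpx1), 2.64 (Ghitm) and 2.03 (Tpt1). The 6 with more negative changes had -0.48 (Klhl9), -0.35 (Elavl1), -0.29 (Slc41a1), -0.35 (Tspan5), -0.28 (Wdr82) and -0.30 (Trp53inp1). The adjusted p was 0.034 for each of these 12 genes by edgeR. Without library 166 the first 6 had 0.53, 0.13, 0.97, 0.91, 0.79 and 0.86 in the order given, and the other 6 had -0.47, -0.34, -0.28, -0.36, -0.25 and -0.28, and 0 of the 12 genes passed by edgeR. With each mouse as a block over both days, and library 166 kept, 0 of 12909 genes were called, with an edgeR adjusted p of 0.356 for Gng5 and 0.677 for Atf5 and between 0.180 and 0.188 for the other 10. The blocked estimates were 0.67, 0.41, 1.23, 1.10, 1.05 and 0.98 for the positive genes and -0.52, -0.37, -0.29, -0.36, -0.27 and -0.31 for the negative genes, in the same orders. By DESeq2 with library 166 kept and no block, 10 of the 12 genes passed. The log2 differences were 0.54 for Gng5 (DESeq2 adjusted p = 0.042), 0.97 for Isg15 (adjusted p = 0.018) and -0.47 for Klhl9 (adjusted p = 0.016). These estimates lay near those of edgeR without library 166. Atf5 and Tspan5 were given no adjusted p by DESeq2.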

How the results depend on the processing

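The Day 24 count of 0 genes held under every setting tried, which included each of the 30 libraries left out in turn, other tools, scalings and filters, the ear tag series or the haemoglobin share as a covariate, and mouse 330 counted as stable or left out. The smallest adjusted p was 0.056 (DESeq2 without library 166), and the number of genes at an unadjusted p below 0.05 ran from 547 to 976 over the libraries left out, lowest without library 166. For 129 named genes there were 6549 estimates under these settings, in which the fits without library 166 and without mouse 330 are counted under both of their names, of which 400 had another sign, 695 moved by at least 1 SD and 0 passed the adjusted p. On log2(TPM + 1) the median of all genes was -0.11 and on log2(TPM + 0.1) it was -0.29, with 10 and 7 genes higher and 501 and 478 lower at an unadjusted p below 0.05.

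The Day 4 to Day 24 count of 402 was 0 with the mouse as a replicate block, 0 without library 166, 0 with both changes and 916 by DESeq2. The pairing rests on the same animals bled on both days. The Day 17 count ranged from 1 to 3 over 29 libraries left out in turn, 3 without library 106 of a progressing mouse. Against responders, the counts of 390 (responders and progressing) and 415 (stable and responders) were 1773 and 1299 without library 166, 0 and 57 with the ear tag covariate, and 130 and 365 with both. The fits that combine library 166 with another change, those with responders and the Day 17 libraries left out were chosen after seeing the data. The cause of these shifts was not tested.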

Other observations

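Of the 31 genes with an estimate of at least 1.5-fold without library 166, 13 are expressed in squamous or other surface epithelium: Krt6a, Krt6b, Krt13, Krt23, Krt75, Scel, S100a14, Calml3, Mal, Upk1b, Upk3bl, Tspan1 and Tmprss4. They were chosen after their values were seen and because of their estimates, so their levels carry no test. Their summed level was 0.916 to 28.8 CPM in 14 stable mice and 1.42 to 20.5 CPM in 15 progressing mice, and the groups overlapped over most of this range. Without the stable mouse with the highest sum, Krt75 was no longer tested and 8 of the other 12 genes had estimates below 1.5-fold, among them Krt6b (log2 fold change 0.78 before and 0.45 after), Krt13 (0.69 and 0.39) and Calml3 (0.73 and 0.42). The 6 tested genes of the mucosal epithelial and tumor list had a median log2 fold change of 0.09 on Day 24 without library 166. On Day 9 the median of 10 tested genes of this list was -1.08. Of these, 7 were lower in stable disease at an unadjusted p below 0.05, against 2.06% of all genes, and 0 were higher. The medians were -0.16 on Day 4 and -0.02 on Day 17.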
